A study of Homo sapiens with 6 samples.

Results

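The genes described here are 10 genes of the enzyme systems with which cells cut the matrix around them: the matrix metalloproteases MMP1, MMP2, MMP7 and MMP14, their inhibitors TIMP1, TIMP2 and TIMP3, and the plasminogen activators PLAU and PLAT with the urokinase receptor PLAUR. They were taken by symbol from a table of 25992 genes, and all 10 were in it. RNA was sequenced from 786-O, a human cell line from a clear cell renal carcinoma that is known to lack working VHL, with the genotype labelled wild type. The 3 copper samples came from cells kept long-term in copper, supplied as copper sulfate that had been bound to serum proteins. For the 3 control samples the serum was handled alike but received no copper. Both groups share the DMEM/F12 medium with serum and the VHL defect of the line. The series text gives 30 uM copper, whereas the labels of copper replicates 1, 2 and 3 give 30, 31 and 32 uM, and they were treated as 1 group. All samples are of 1 tumour line. The labels do not say that the replicates were grown separately, and the p-values measure only the spread between these libraries.

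Matrix metalloproteases are zinc enzymes made as inactive precursors. MMP14 is anchored in the cell membrane and, with TIMP2 as a bridge, activates the precursor of MMP2, a gelatinase. TIMPs are secreted proteins that bind the active site of many of these enzymes. Urokinase, the product of PLAU, is held at the cell surface by PLAUR, where it turns plasminogen into plasmin. In renal carcinoma these systems have been studied for their part in invasion.

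The libraries held 16301772 to 25079913 counts, and 12944 genes passed the filter on low counts and were tested. Of the 10 genes, 7 were tested, and MMP1, MMP7 and TIMP3 had too few counts. Replicate 3 of both groups was unlike the other libraries: principal component 1, with 62.1% of the variance, placed copper replicate 3 at 37.9 and control replicate 3 at 15.1, and the other libraries between -15.7 and -10.7. Principal component 2, with 17.4% of the variance, placed the copper libraries between 7.22 and 11.4 and the control libraries between -16.9 and -4.31. The renal marker PAX8 was at 123 to 147 CPM (a gene's counts relative to the TMM-scaled library size) and VIM at 2763 to 3788 CPM, while CA9, a marker of clear cell carcinoma, was at 0 to 0.122 CPM. Of 6 macrophage markers 5 stayed under 1 CPM in every library, with PTPRC at 0 to 0.224 CPM, and the other, CSF1R, was at 3.54 to 9.55 CPM and highest in copper replicate 3. Of 6 endothelial markers 5 stayed under 1 CPM, with PECAM1 at 0 to 0.168 CPM, and KDR reached 1.36 CPM. The summed level of the 6 fibroblast markers was 10.8 to 14.5 CPM in copper and 12.6 to 20.3 CPM in control.

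Between copper-adapted and control cells, 0 of the 7 tested genes passed edgeR's quasi-likelihood test, and their adjusted p-values were all 1.00. The background was 0% of the 12944 tested genes called. With the replicate number as a block, 0 of the 7 were called, against 0.170% of all tested genes, and the smallest adjusted p was 0.654. At an unadjusted p under 0.05 there were 0 of the 7 without the block, against 3.52% of all genes, and 0 of the 7 with it, against 8.41%. The copper and control libraries overlapped for all 7, while 10.8% of all tested genes did not overlap (5.45% higher and 5.35% lower in copper). The median log2 fold change of the 7 was 0.14, beside 0.0052 over all tested genes. It was -0.17, 0.05 and 0.28 in replicates 1, 2 and 3, so its sign differed between replicates. DESeq2, limma-voom and all other fits run also called 0 of the 7.

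**Figure D1:**
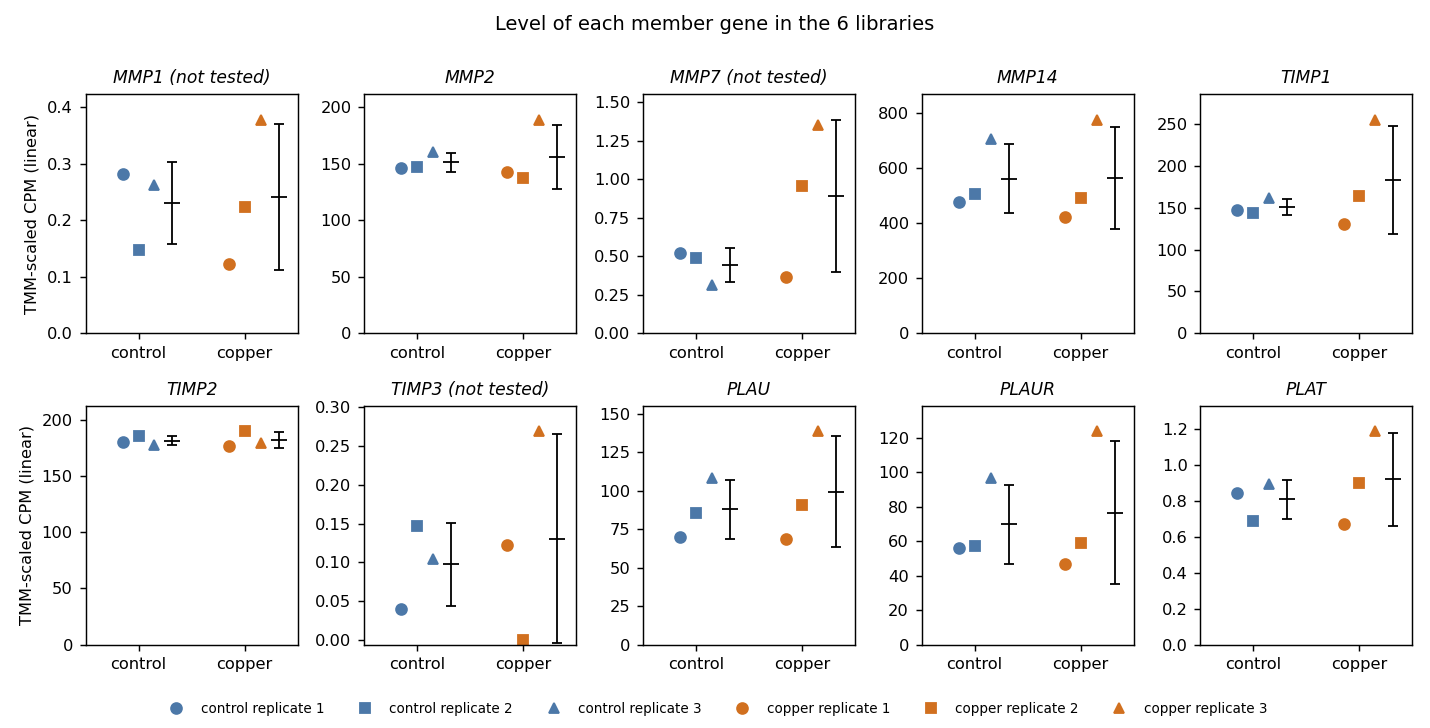
Level of each of the 10 genes in the 6 libraries, as CPM scaled by TMM library size on a linear axis that differs between panels. Points are libraries (circle, square and triangle for replicates 1, 2 and 3) and black bars give the mean ± SD of 3 libraries. Copper replicate 3 is the highest library for all tested genes other than TIMP2, which stays between 176 and 190 CPM.

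The levels were ordered per length, as CPM per kilobase of exon in GENCODE 29 protein-coding transcripts. MMP14 was highest, with a mean over the 6 libraries of 150.5 CPM per kilobase (113 to 207). TIMP1 followed at 114.5 (89.5 to 175), and these ranges overlap. Both lay above TIMP2 at 44.5 (43.3 to 46.6). PLAU at 34.9 (25.6 to 51.7) and PLAUR at 33.2 (21.1 to 56.3) overlapped TIMP2 and each other, and MMP2 at 32.4 (28.9 to 39.8) overlapped both of them but not TIMP2. The membrane protease and the secreted inhibitor TIMP1 were thus the leading transcripts of the set in both groups. The remaining genes were far lower. MMP7 was at 0.592 CPM per kilobase (0.280 to 1.20) and PLAT at 0.313 (0.243 to 0.430), with overlap between them. MMP1 was at 0.120 (0.0619 to 0.192) and TIMP3 at 0.0248 (0 to 0.0586), each below the genes before it in every library.

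Upstream sequences are shown for MMP14, TIMP1, PLAU and PLAUR, since these genes were highest in replicate 3 of both groups and the reference table holds their windows, and for MMP7 because 2 of the searched motifs lie near its start. They are RefSeq sequence (GRCh38.p14), 5′ to 3′ on the strand of the gene, ending at the base before the start site. The first 4 are 250 bases long and that of MMP7 is 120 bases. Capitals mark matches on either strand. The AP-1 motif searched was TGANTCA. The ETS motif was taken as CAGGAAG, and the form ACAGGAA was searched as well. A TATA box was TATAAA. A GC box was GGGCGG. The last was added after the sequences were seen.
MMP14, chr14:22836335-22836584, plus strand: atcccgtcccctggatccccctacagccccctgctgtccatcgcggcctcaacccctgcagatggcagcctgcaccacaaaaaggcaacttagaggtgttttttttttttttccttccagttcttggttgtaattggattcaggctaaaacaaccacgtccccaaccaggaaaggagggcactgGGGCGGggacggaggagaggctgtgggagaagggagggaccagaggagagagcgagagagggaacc
TIMP1, chrX:47582186-47582435, plus strand: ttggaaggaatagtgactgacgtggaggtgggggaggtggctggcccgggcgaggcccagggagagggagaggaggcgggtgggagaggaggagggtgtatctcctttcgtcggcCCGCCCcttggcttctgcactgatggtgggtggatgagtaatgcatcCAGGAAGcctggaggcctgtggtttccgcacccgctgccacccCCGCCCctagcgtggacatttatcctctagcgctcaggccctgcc
PLAU, chr10:73910882-73911131, plus strand: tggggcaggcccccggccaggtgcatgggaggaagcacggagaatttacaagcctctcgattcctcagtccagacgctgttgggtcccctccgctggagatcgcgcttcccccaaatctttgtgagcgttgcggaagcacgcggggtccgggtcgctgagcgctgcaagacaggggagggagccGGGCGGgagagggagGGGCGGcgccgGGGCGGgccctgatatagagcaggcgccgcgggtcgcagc
PLAUR, chr19:43670170-43670419, minus strand: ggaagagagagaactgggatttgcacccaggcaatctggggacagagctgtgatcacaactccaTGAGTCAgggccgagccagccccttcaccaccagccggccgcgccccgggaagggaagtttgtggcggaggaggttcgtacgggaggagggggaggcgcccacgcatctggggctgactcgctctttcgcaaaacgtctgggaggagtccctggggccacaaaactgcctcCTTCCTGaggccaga
MMP7, chr11:102530748-102530867, minus strand: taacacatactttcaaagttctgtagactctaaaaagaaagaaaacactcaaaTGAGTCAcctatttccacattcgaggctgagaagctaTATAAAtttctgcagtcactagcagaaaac

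Within 250 bases upstream, PLAUR had 1 AP-1 match, 186 to 180 bases before its RefSeq start at 43670169. The gene span used for the counts of PLAUR begins further upstream, at 43670346. Part of its window, with its ETS match, thus lies inside that span. MMP7 had 1 AP-1 match at 67 to 61 bases, followed by a TATA box at 30 to 25 bases. MMP14, TIMP1 and PLAU had no match to TGANTCA in these windows. Letters 1 base away from it were not searched, such as TGAGTAA shortly before the ETS match of TIMP1. The absence of a match is therefore not an absence of AP-1 sites. GC boxes were found in MMP14 (1), TIMP1 (2) and PLAU (3, all between 66 and 35 bases before the start). TIMP3, whose window is not printed, held several GC boxes, from 166 to 13 bases before its start, and no AP-1, ETS or TATA match. ETS matches were found in TIMP1 (88 to 82 bases), PLAUR (15 to 9 bases) and MMP7 (169 to 163 bases, outside the printed stretch). Of 35116 RefSeq windows of 250 bases, 6.57% held the AP-1 letters, 13.6% the ETS letters, 10.7% a TATA box and 42.6% a GC box. No match to the exact AP-1 or ETS letters searched was thus common to the 4 windows of MMP14, TIMP1, PLAU and PLAUR. The table held windows for 6 of the 10 genes. MMP1, MMP2, TIMP2 and PLAT were not among them, and of these MMP2 and PLAT were also highest in replicate 3 of both groups. PLAU has a further window for a start upstream, at position 73910610, in which none of the letters searched was found.

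MMP14 (Entrez 4323; chromosome 14, 22836585 to 22847758, plus strand), the membrane-anchored collagenase, was at 423, 491 and 774 CPM in copper replicates 1, 2 and 3 and at 476, 504 and 704 CPM in control replicates 1, 2 and 3. Replicate 3 was the high library in both groups, and the groups overlapped throughout. The means were 562.5 ± 186 CPM in copper and 561 ± 124 CPM in control (SD, n = 3). The log2 fold change was 0.0036 (SE 0.25; 95% interval -0.57 to 0.58; adjusted p 1.00 by edgeR). With the replicate block it was -0.02 (SE 0.09; 95% interval -0.22 to 0.18; adjusted p 0.947). Taken by replicate number, copper minus control was -0.17, -0.04 and 0.14 on the log2 scale.

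MMP2 (Entrez 4313; chromosome 16, 55479198 to 55506691, plus strand), the gelatinase that MMP14 activates, was at 143, 137 and 189 CPM in copper and 146, 147 and 161 CPM in control. Copper replicate 3 was the only copper library above the controls. The log2 fold change was 0.05 (SE 0.14; 95% interval -0.27 to 0.37; adjusted p 1.00 by edgeR). Without copper replicate 3 it was -0.11 for MMP2 and -0.30 for MMP14. MMP14 was also below 0 without control replicate 1 (-0.11) and without control replicate 2 (-0.07).

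MMP1, the interstitial collagenase, and MMP7, also called matrilysin, lie on chromosome 11 (102789919 to 102798160 and 102520508 to 102530747, both on the minus strand; Entrez 4312 and 4316). MMP1 had 2, 4 and 7 counts in copper and 7, 3 and 5 in control. MMP7 had 6, 17 and 25 counts in copper and 13, 10 and 6 in control, or 0.366, 0.953 and 1.35 CPM against 0.523, 0.490 and 0.314 CPM. In copper, MMP7 was above every control library in replicates 2 and 3 and below 2 of the 3 in replicate 1. With no filter on low counts, edgeR gave MMP7 a log2 fold change of 0.85 (unadjusted p 0.0540, adjusted p 0.975) and MMP1 one of 0.04 (adjusted p 0.986). For MMP7 the log2 fold change was 1.19 without copper replicate 1 (unadjusted p 0.0104, adjusted p 0.978) and 1.29 with the replicate block and replicate 1 left out (unadjusted p 0.00115, adjusted p 0.134). MMP7 was not called in any of these edgeR fits, and its counts per library were 6 to 25. Both fits that leave out copper replicate 1 drop its lowest copper library, and it passed their filter only through copper replicates 2 and 3. Their p-values are shaped by that selection and lend no support to a difference.

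TIMP1 (Entrez 7076; chromosome X, 47582436 to 47586789, plus strand), a secreted inhibitor of most matrix metalloproteases, had the smallest unadjusted p of the 7 genes tested in the group-only edgeR fit (0.252). It was at 131, 164 and 255 CPM in copper and 148, 143 and 161 CPM in control. The copper libraries ran from below all controls in replicate 1 to above all controls in replicates 2 and 3. The log2 fold change was 0.28 (SE 0.23; 95% interval -0.25 to 0.81; adjusted p 1.00 by edgeR). With the replicate block it was 0.23 (SE 0.14; adjusted p 0.654). The differences by replicate number were -0.18, 0.19 and 0.66, and without copper replicate 3 the log2 fold change was -0.03.

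TIMP2 (Entrez 7077; chromosome 17, 78852977 to 78925387, minus strand), which inhibits MMP2 and also takes part in its activation, was the steadiest of the set. It was at 176, 190 and 179 CPM in copper and 180, 185 and 178 CPM in control, with means of 181.5 ± 7.14 and 181 ± 3.91 CPM (SD, n = 3). Its log2 fold change was 0.0039 (SE 0.08), with a 95% interval of -0.19 to 0.20, the narrowest of the 7. In fold terms that interval runs from 0.876 to 1.15. TIMP3, the inhibitor that binds to the matrix (Entrez 7078; chromosome 22, 32801705 to 32863041, plus strand), had 2, 0 and 5 counts in copper and 1, 3 and 2 in control. The 0 in copper replicate 2 allows up to 0.168 CPM, from the limit of 3 counts, which covers counting error only.

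PLAU (Entrez 5328; chromosome 10, 73911132 to 73917494, plus strand), which encodes urokinase, was at 68.6, 91.0 and 139 CPM in copper and 70.2, 85.7 and 108.5 CPM in control. Its receptor PLAUR (Entrez 5329; chromosome 19, 43646095 to 43670346, minus strand) was at 46.5, 59.0 and 124 CPM in copper and 55.8, 56.9 and 96.4 CPM in control. For both genes replicate 3 was the highest library of each group and copper replicate 3 the highest of all. The log2 fold change of PLAU was 0.18 (SE 0.27; 95% interval -0.44 to 0.80; adjusted p 1.00 by edgeR). That of PLAUR was 0.14 (SE 0.38; 95% interval -0.75 to 1.02; adjusted p 1.00). Ligand and receptor thus moved less between groups than between libraries of a group. With the block the values were 0.14 (SE 0.10; adjusted p 0.679) for PLAU and 0.06 (SE 0.12; adjusted p 0.899) for PLAUR. Without copper replicate 3 they were -0.14 and -0.40, and PLAUR was -0.0045 without control replicate 1.

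PLAT (Entrez 5327; chromosome 8, 42174718 to 42207565, minus strand), which encodes tissue-type plasminogen activator, had only 11 to 22 counts. It was at 0.671, 0.897 and 1.19 CPM in copper and 0.845, 0.686 and 0.891 CPM in control. The log2 fold change was 0.17 (SE 0.31; 95% interval -0.52 to 0.91; adjusted p 1.00 by edgeR). Without copper replicate 3 it was -0.03.

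Whether the counting used strand is not given in the sources used here, so genes that overlap a member were listed. On the opposite strand these were SYN1 over TIMP1 (0 to 3 counts per library), SYN3 over TIMP3 (8 to 21), C10orf55 over PLAU (9 to 22) and WTAPP1 over MMP1 (0 to 3). CEP295NL overlaps TIMP2 on the same strand (2 to 8 counts). SYN3 had more counts than TIMP3 itself, which had at most 5, so the low values of TIMP3 are uncertain.

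**Figure D2:**
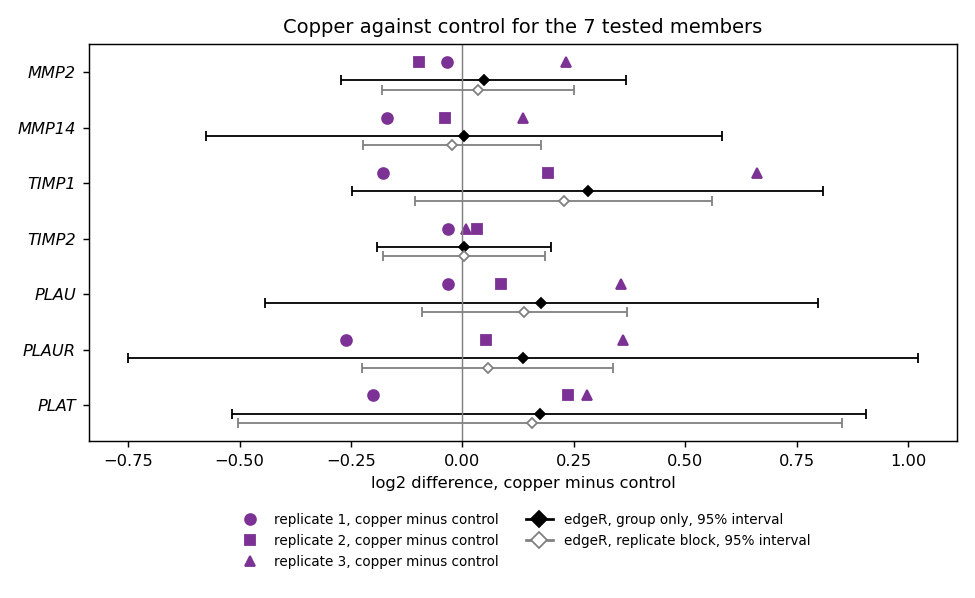
Copper minus control on the log2 scale (x axis) for the 7 tested genes. Purple points are the differences by replicate number, black diamonds the group-only edgeR estimates and open diamonds the estimates with the replicate block, each with its 95% interval, and all 14 intervals include 0. For 6 of the 7 genes replicate 3 lies farthest to the right, and replicate 1 lies below 0 for all 7.

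Replicate 3 differed from the other libraries of its group for most of these genes. On the log2 scale, replicate 3 minus the mean of replicates 1 and 2 was 1.23 in copper and 0.77 in control for PLAUR. It was 0.81 and 0.48 for PLAU, and 0.76 and 0.52 for MMP14. For TIMP1 the shift was 0.80 in copper but 0.15 in control. MMP2 (0.43 and 0.13) and PLAT (0.40 and 0.14) shifted less, and TIMP2 did not rise (-0.03 and -0.04). Replicate 3 was the highest library of both groups for 6 of the 7 tested genes, against 30.0% of all tested genes, and copper replicate 3 was the highest of the 6 libraries for 6 of the 7, against 33.2%. These are descriptions with no test, since the labels give no batch and replicate 3 has 1 library in each group.

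Transcript length moved with the same shift. The tested genes were split by exon length into 4 groups of near equal size, numbered from the shortest. In copper, the median of replicate 3 minus the mean of replicates 1 and 2 was 0.24 in length group 1 (359 to 2439 bases) and -0.30 in length group 4 (5857 to 116859 bases). In control these medians were 0.05 and -0.06. The median of copper minus control over all libraries also fell with length. It was 0.07, 0.01, -0.03 and -0.08 in length groups 1, 2, 3 and 4, and the part of length in the group differences was not tested. A length was found for 90.8% of the tested genes. TIMP1 (1459 bases) and PLAUR (2200 bases) fall in length group 1, PLAU, PLAT and MMP14 in group 2, and MMP2 and TIMP2 in group 3. The shifts of PLAUR, PLAU, MMP14 and TIMP1 in copper were larger than the median of length group 1, and the part of length in them was not tested.

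**Figure D3:**
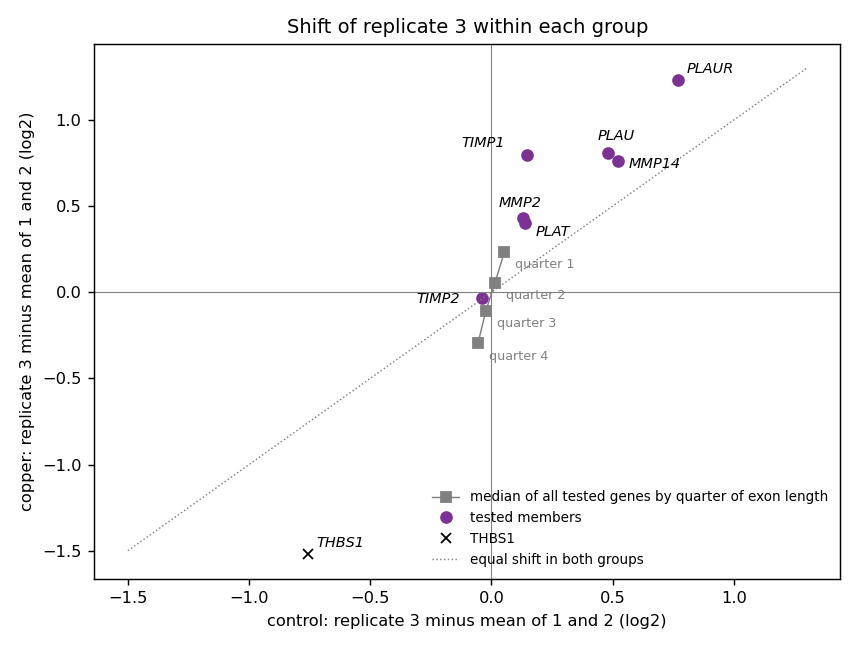
Shift of replicate 3 from the mean of replicates 1 and 2 on the log2 scale, in control (x axis) and in copper (y axis). Purple points are the 7 tested genes, the cross is THBS1, and grey squares are medians of all tested genes in 4 groups of exon length, from shortest (1) to longest (4). PLAUR, PLAU and MMP14 lie at the upper right, TIMP1 is shifted mainly in copper, TIMP2 is near 0 and THBS1 is at -1.52 in copper and -0.76 in control.

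The 5 genes whose log2 CPM followed TIMP1 most closely over the 6 libraries, among 9257 tested genes averaging 10 CPM or more, were DPYSL2 (Pearson r 0.996), PTPN18 (0.990), UROD (0.990), IFITM3 (0.985) and ECM1 (0.984). Copper replicate 3 was the highest library of all 5, as of TIMP1. The points share their libraries and depth, and the r is a description. Without the 2 libraries farthest from the median of TIMP1, r was 0.978, 0.913, 0.977, 0.974 and 0.918 in the same order. The 5 genes were picked by their r over all 6 libraries, so the trimmed r carries that choice and is no separate support. In the edgeR fit their log2 fold changes ran from 0.06 for DPYSL2 to 0.42 for ECM1, each with an adjusted p of 1.00. Without copper replicate 3, ECM1 was at 0.09.

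Pairs of these genes were also compared within each library as log2 ratios of CPM, which do not depend on library scaling. The ratios compare transcript levels only and do not show which inhibitor acts on which protease. All 6 ratios computed overlapped between groups. Of all tested genes set over TIMP1, 0.301% were higher and 4.8% lower in copper with no overlap. Over TIMP2 these shares were 4.1% and 5.65%, over SERPINE2 1.51% and 4.83%, and over PLAUR 0.232% and 0.556%. The ratios were chosen after the levels had been seen. On the log2 scale, MMP14 over TIMP1 was 1.70, 1.58 and 1.60 in copper and 1.69, 1.81 and 2.13 in control. The difference of -0.25 had the smallest exact two-sided permutation p of the 6, 0.20, and 0.90 after Benjamini-Hochberg adjustment over them, while the smallest p that 3 against 3 libraries can give is 0.10. MMP2 over TIMP1 was 0.13, -0.26 and -0.43 in copper and -0.02, 0.03 and -0.01 in control, so the copper libraries lay on both sides of a narrow range of controls. MMP14 over TIMP2 was highest in replicate 3 of both groups, at 2.12 in copper and 1.99 in control, against 1.26 to 1.44 in the others. PLAU over PLAUR was lowest in replicate 3 of both groups, at 0.17 in each.

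**Figure D4:**
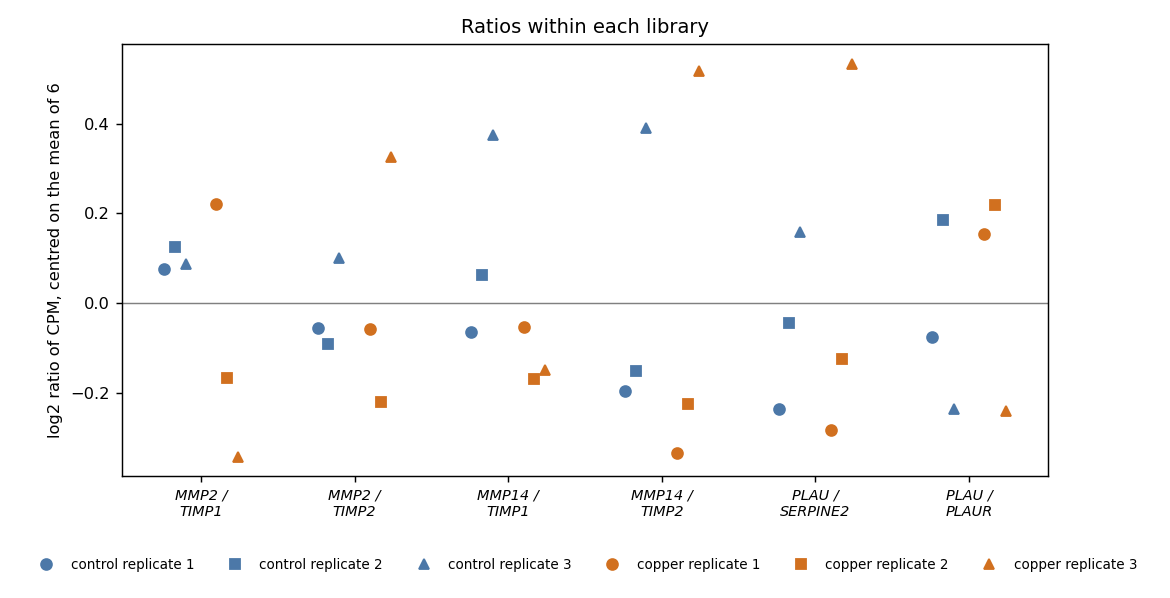
Log2 ratio of CPM of the upper to the lower gene in each library, centred on the mean of the 6 libraries for each of 6 ratios. Blue points are control and orange points copper libraries, with circle, square and triangle for replicates 1, 2 and 3. The groups overlap for all 6 ratios, and MMP14 over TIMP2 is highest in replicate 3 of both groups.

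Of 19 other matrix metalloproteases, 6 were tested and 0 were called by edgeR, 2 with a higher and 4 with a lower log2 fold change in copper (median -0.08). The other 13, among them MMP3, MMP8, MMP10, MMP11 and MMP12, had too few counts. MMP13, collagenase 3, was at 1.52, 1.29 and 0.971 CPM in copper and 3.02, 1.77 and 1.73 CPM in control, so that all copper libraries lay below all controls. Its log2 fold change was -0.75 (SE 0.32; unadjusted p 0.0371, adjusted p 1.00), and -0.45 without control replicate 1. MMP9, the other gelatinase, was at 0.732, 0.561 and 2.05 CPM in copper and 0.644, 0.294 and 0.891 CPM in control, with a log2 fold change of 0.79 (SE 0.59), which was 0.07 without copper replicate 3 and 0.51 without control replicate 2. MMP16, a membrane-type relative of MMP14, had one of -0.32 (SE 0.28), which was -0.06 without copper replicate 3 and -0.63 without copper replicate 2.

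Of 16 regulators of metalloproteases, 11 were tested and 0 called, 5 higher and 6 lower in sign. PCSK5, a proprotein convertase of the furin family, was at 13.5, 13.5 and 8.31 CPM in copper and 7.36, 8.87 and 5.87 CPM in control. The groups overlapped only through copper replicate 3, and its copper minus control differences were 0.84, 0.57 and 0.47 in replicates 1, 2 and 3. By edgeR the log2 fold change of PCSK5 was 0.67 (SE 0.24; adjusted p 1.00 without and 0.145 with the block). LRP1, an endocytic receptor for proteases and other ligands, was estimated at -0.27 (SE 0.14, log2 scale; not called), and its differences by replicate number were -0.26, -0.25 and -0.30. Without copper replicate 1 the estimate for LRP1 was -0.18. THBS1, a matrix protein that binds to several of these enzymes, had a log2 fold change of -0.18 (SE 0.40) and was lowest in replicate 3 of both groups. THBS1 was at 0.17 without copper replicate 3, 0.05 without control replicate 2, -0.45 without copper replicate 1, -0.36 without copper replicate 2 and -0.40 without control replicate 3. RECK and BSG were named after their values had been seen. RECK, a membrane-anchored inhibitor of MMP14, averaged 16.2 ± 1.86 CPM in copper and 16.3 ± 1.43 CPM in control (SD, n = 3). BSG, an inducer of metalloproteases, had a log2 fold change of 0.10 (SE 0.18).

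Of 24 genes of the plasminogen system, 14 were tested and 0 called, 10 higher and 4 lower in sign. ITGB3, the integrin chain of the vitronectin receptor, was at 57.6, 63.3 and 64.3 CPM in copper and 46.2, 42.3 and 53.7 CPM in control, with no overlap. Its log2 fold change was 0.38 (SE 0.12; adjusted p by edgeR 1.00 without and 0.323 with the block). TFPI2, an inhibitor of plasmin, was at 192, 236 and 300.3 CPM in copper and 179.5, 153 and 207 CPM in control, a log2 fold change of 0.43 (SE 0.18; adjusted p 1.00 and 0.354), which was 0.25 without copper replicate 3. F3, which encodes tissue factor, was at 125.5, 186 and 234 CPM in copper and 175, 194 and 263 CPM in control, a log2 fold change of -0.21 (SE 0.24; adjusted p 1.00 and 0.588). For F3 it was -0.01 without copper replicate 1, -0.02 without control replicate 3, -0.43 without copper replicate 3 and -0.33 without control replicate 1. PLG, which encodes plasminogen, was not tested for low counts. Among 33 ADAM, ADAMTS and tolloid genes 19 were tested and 0 called, 4 higher and 15 lower in sign. Over all 12944 tested genes, 6657 were higher and 6287 lower in sign. The sign counts of the lists were not tested, and the genes of a list share the shift of replicate 3. ADAMTS9, a protease of large proteoglycans, had a log2 fold change of -0.42 (SE 0.15; adjusted p 1.00 and 0.264). ADAM10, a sheddase of membrane proteins, had one of -0.23 (SE 0.18) and ADAMTS3, which trims procollagen, one of -0.26 (SE 0.22). Without copper replicate 3 they were -0.05 and -0.03, and without copper replicate 2 they were -0.35 and -0.40. The median of the list by replicate number was 0.01, -0.14 and -0.41 in replicates 1, 2 and 3.

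Of 17 transcription factors of the AP-1 and ETS families and related genes, 16 were tested and 0 called, 8 higher and 8 lower in sign. ETS1 was at 287, 345 and 313 CPM in copper and 359, 369 and 440 CPM in control, with no overlap and a log2 fold change of -0.31 (SE 0.12; adjusted p by edgeR 1.00 without and 0.465 with the block). ETV1 had 17, 21 and 33 counts in copper and 10, 8 and 16 in control. It passed the filter on low counts only because of its copper libraries, so its difference is tied to that filter. ETV1 was at 1.04, 1.18 and 1.78 CPM in copper and 0.402, 0.392 and 0.838 CPM in control, a log2 fold change of 1.17 (SE 0.40; adjusted p 1.00 and 0.208). JUND had one of 0.23 (SE 0.13), which was 0.11 without control replicate 3. The names from these lists follow a rule of smallest p, so their p-values are the low end of each list. Over the 5 lists together, 6 tested genes did not overlap between groups, beside the 10.8% of all tested genes given above.

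In replicates 1 and 2 alone, edgeR with the replicate block called 912 of 12966 genes, 7.03% of those tested (2.88% higher and 4.16% lower in copper), and 0 of the 7 member genes. From the lists it called PCSK5, ITGB3, TFPI and ETV1 higher and LRP1, MRC2, ADAMTS9, ADAMTS15, ETS1 and JUNB lower in copper. The tested genes in that fit were 6 other metalloproteases, 11 regulators, 15 plasminogen genes, 19 ADAM, ADAMTS and tolloid genes and 16 transcription factors. ETV1 passed its filter through copper libraries alone. With 2 libraries per group and the block, little is left to measure each gene's own spread. These calls therefore rest largely on spread pooled over all genes. TFPI, MRC2, ADAMTS15 and JUNB fall outside the naming rule and were named after their values had been seen. In replicate 3, copper minus control was 0.17 for MRC2, 0.16 for JUNB and 0.0048 for ADAMTS15 on the log2 scale, against the direction called. The other genes called from the lists had the called direction in replicate 3 as well. Without the block, replicates 1 and 2 gave calls for PCSK5 (0.73, adjusted p 0.0225) and ITGB3 (0.45, adjusted p 0.0237), against 0.856% of all tested genes (0.501% higher and 0.355% lower in copper), and for 0 of the 7 member genes.

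**Figure D5:**
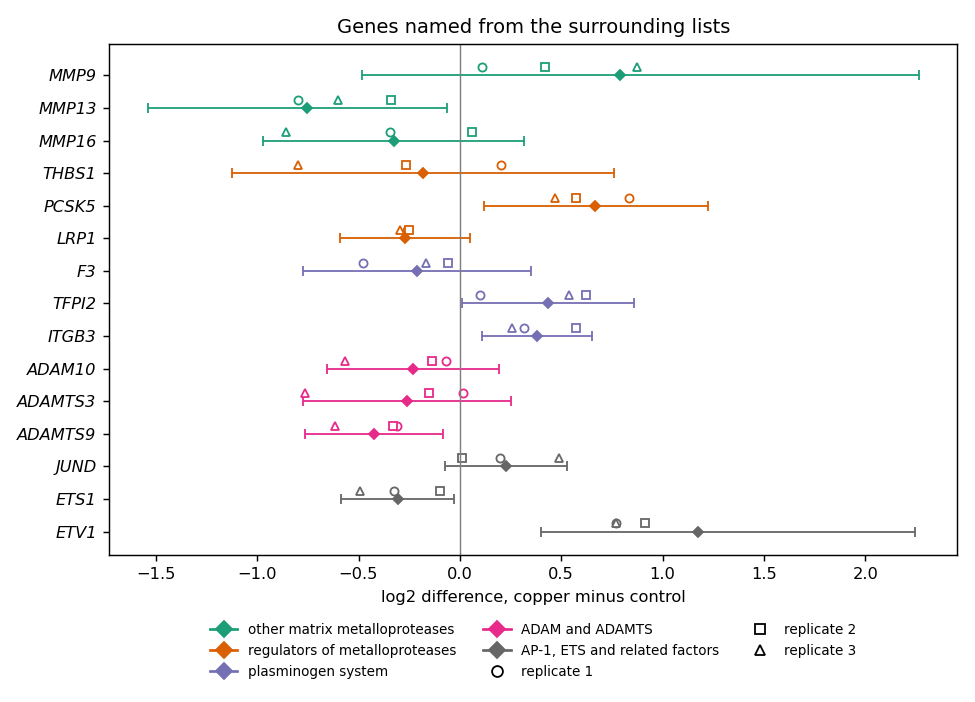
Copper minus control on the log2 scale (x axis) for the 15 genes named from the 5 lists, coloured by list. Diamonds are group-only edgeR estimates with 95% intervals and open symbols the differences by replicate number. MMP13, LRP1, ADAMTS9 and ETS1 lie below 0 with ADAM10 and F3, and MMP9, PCSK5, TFPI2, ITGB3, JUND and ETV1 above 0, in all 3 replicates, and none was called over all tested genes.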

How the data were processed

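Per the labels' protocols, libraries were prepared with NEBNext Ultra II Directional reagents. The deposited table holds unnormalised counts per gene for the 6 libraries. The submitters' processing notes name STAR, FastQC, edgeR and GRCh38, without roles. The counting program, its use of strand and the treatment of reads matching several genes are not given in the sources used here. Symbols and positions are the table's, with 1 added to starts. The 5 genes that lack a symbol hold 0.000814% of all counts and were not used.

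The analysis ran in R 4.3.3 and used edgeR 4.0.16: filterByExpr (minimum count 10, minimum total 15), TMM scaling, and the robust quasi-likelihood test of copper against control, with Benjamini-Hochberg adjustment over all 12944 tested genes and a threshold of 0.05. A prior count of 2 entered fitted log2 fold changes. CPM are counts relative to the TMM-scaled library size, and log2 values of single libraries add 0.5 CPM. Intervals are at 95%. The scripts were tested on simulated counts. The libraries within a group differed beyond sampling noise (chi-square per degree of freedom at least 5.40).

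The replicate numbers were checked as pairs: across tested genes, deviations from the group mean correlated between same-numbered libraries at 0.53, 0.45 and 0.68, above the minimum of 0.1. The numbers come from the sample titles. Deviations within a group cancel over its libraries, so the shift of replicate 3 also enters those of replicates 1 and 2. Libraries of unlike number were not compared, so the check cannot show that replicates 1 and 2 pair by number. Values with the number as a block are given beside the others as an alternative.

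A gene of the plasminogen list is not reported here, and the naming rule was applied without it. The 10 genes and the lists were chosen with earlier results of these data known. Named genes were all 10, from each list the 3 tested genes with the smallest p in the blocked fit and any called gene, and the 5 genes most correlated with TIMP1. As alternatives, scaling was by RLE, by the upper quartile or by totals; genes were unfiltered or kept at a mean of 10 counts; and the tool was DESeq2 1.42.0 or limma-voom (limma 3.58.1). Further ones were a non-robust fit, a prior count of 0.125, the block, a term for replicate 3, replicates 1 and 2 alone, and each library or pair left out.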

Additional observations from a re-analysis of the deposited data

How the results depend on the processing

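The count of member genes called was 0 under all 21 alternatives run, DESeq2 and limma-voom among them. The count over all genes, 0 in the group-only fit, was 22 with the replicate block, 12 on unfiltered genes, 27 in DESeq2, 58 in DESeq2 with the block, 35 when replicate 3 had its own term and 111 when only replicates 1 and 2 were used. With the block and 1 pair left out it was 74, 77 and 912, the last without replicate 3, and with 1 library left out it was 0 to 15, with 15 without copper replicate 3. The blocked fits with a pair left out rest largely on spread pooled over all genes. With all 6 libraries, the block changed no call of a member or of a gene named from the lists. In replicates 1 and 2 alone it changed no call of a member, but LRP1, ADAMTS9, ETS1 and ETV1 were called with it and not without it. The median log2 fold change of the 7 tested members was 0.136 and ranged from -0.111 (without copper replicate 3) to 0.332 (without copper replicate 1) with 1 library left out. It was 0.0566 with the block and 0.0016 in replicates 1 and 2 alone.

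Directions near 0 changed. MMP14 was at -0.023 with the replicate block, -0.026 with DESeq2 and the block, -0.026 with limma-voom, -0.013 with no filter and -0.021 with a term for replicate 3. TIMP2 was at -0.015 with no filter. In replicates 1 and 2 alone, MMP14 was at -0.101, MMP2 at -0.066, PLAUR at -0.093, DPYSL2 at -0.011, IFITM3 at -0.041 and UROD at -0.035. With the block and replicate 3 left out these were -0.104, -0.066, -0.102, -0.013, -0.044 and -0.037. With the block and replicate 2 left out, MMP14 was at -0.016 and TIMP2 at -0.012. With 1 library left out, ranges were -0.297 to 0.199 for MMP14, -0.111 to 0.129 for MMP2, -0.140 to 0.382 for PLAU, -0.397 to 0.440 for PLAUR, -0.033 to 0.332 for PLAT, -0.034 to 0.473 for TIMP1 and -0.033 to 0.022 for TIMP2. They were -0.446 to 0.171 for THBS1, -0.025 to 0.127 for DPYSL2, -0.054 to 0.358 for IFITM3, -0.023 to 0.239 for PTPN18, -0.044 to 0.198 for UROD, and 0.085 to 0.631 for ECM1. For these changes the cause was not tested. At 2 to 25 counts per library, or 0 to 5 for TIMP3, differences in MMP1, MMP7 and TIMP3 did not pass the threshold in any fit that held them.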
